A study of Drosophila melanogaster with 4 samples.

Results

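H3K36me1 clusters narrower than 20 kb on the left arm of chromosome 2 (2L) of Drosophila melanogaster heads are described here. H3K36me1 is the monomethylated form of lysine 36 of histone H3. The clusters were chosen by their position and width in the authors' list for the set of replicates, called the combined list: arm 2L, a width under 20000 bases and a start under 20000000. The rule took 1151 of the 7567 clusters of the combined list, all called members below. Of the 1351 combined clusters on 2L it left out 57 of 20 kb or wider, and 139 narrow and 4 wide ones that start at or past 20 Mb. The flies were wild-type Oregon-R, mixed adults, with no treatment and no other genotype or stage for comparison. Chromatin immunoprecipitation with sequencing was done in 2 ChIP replicates, and 2 input samples, which are chromatin not selected by antibody, served as controls. Each ChIP replicate has its own cluster list, and these lists are set beside the combined one. By the same rule for arm, width and start, the list of replicate 1 holds 872 clusters and that of replicate 2 holds 851.

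Methylation of lysine 36 of histone H3 is known from transcribed euchromatin. In flies the trimethylated form is written by Set2 along the bodies of active genes, and Ash1 and Mes-4 are the other known enzymes of this lysine. The monomethylated form is the least studied of the series, and in chromatin-state maps of fly cell lines it is among the marks of introns and regulatory parts of active genes. An adult head is a mixture of neurons, glia, eye, fat body, muscle and cuticle cells. A cluster shows that the mark passed the authors' threshold in that mixture, and fewer cells carrying the mark and less of the mark per cell cannot be told apart.

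The 3 lists give positions and a score for each cluster, and no read counts. The depth is therefore unknown, and a stretch without a cluster may still carry the mark below the authors' threshold. The combined and the replicate lists come from the same libraries, so finding a member in a replicate list is no independent test of it. All values below are descriptions of these lists, without p-values. The labels do not say whether the replicates came from separate cages, so the spread between them may be technical. Positions are in FlyBase release 5, counted from 1, and gene names are not given because the gene table used here is of another release.

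Members were mostly short, and together they covered more of the arm than the wider clusters did. Their median width was 2313 bases, with quartiles at 1498 and 4666 bases and a range from 1001 to 19639. Together they spanned 4.44 Mb, or 22.2% of the first 20 Mb, and the 57 wider clusters left out by the rule covered a further 11.5%. In the replicate lists, clusters chosen by the same rule covered 17.7% in replicate 1 and 17.0% in replicate 2, with median widths of 2492 and 2516 bases. The score, the authors' own value per cluster with no stated unit, ran from 0.117 to 1.54 among members with a median of 0.428. Wider members scored higher, with a Spearman rho of 0.667 across the 1151 members. Members lie on the same arm and come from the same libraries, so this correlation is a description only.

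The nearest clusters on either side of each limit of the rule had overlapping scores. The 3 members just under 20 kb measured 19.6, 19.3 and 19.1 kb and scored 1.13, 0.712 and 1.09, and the 3 clusters just over it measured 20.8, 21.0 and 21.2 kb and scored 0.739, 0.569 and 1.13. At the other limit, the last 3 members before 20 Mb measured 18.2, 2.73 and 2.65 kb and scored 0.582, 0.423 and 0.541. The first 3 narrow clusters past it measured 6.53, 2.53 and 1.32 kb and scored 0.823, 0.409 and 0.382. These few clusters do not show whether the arm is alike on both sides of 20 Mb. Narrow clusters were sparser past it: 139 start between there and the end of the arm at 23 Mb, against 175 members from 18 to 20 Mb. Numbers also varied before 20 Mb, with 80 members from 12 to 14 Mb.

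A member was counted as held by a replicate list if the 2 had a base or more in common. Both replicate lists held 508 members (44.1%, Wilson 95% interval 41.3 to 47.0), and neither held 405 (35.2%, interval 32.5 to 38.0). Replicate 1 alone held 155 members and replicate 2 alone held 83. The intervals cover counting error alone. Among all 7220 combined clusters under 20 kb in the genome, 40.9% were held by both lists and 36.9% by neither, so the shares on 2L lie near those of the genome. Members held by both made up 74.2% of all member bases, and members held by neither 13.1%.

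Width separated the members that both replicates hold from those that neither holds. A wider member has more bases that a replicate cluster can share, so the rule of 1 shared base by itself favours wide members. Among members held by both, the median was 5197 bases for width and 0.542 for the score. Those held by replicate 1 alone measured 2035 bases with a score of 0.387, and those held by replicate 2 alone measured 2078 bases with a score of 0.379. Members held by neither had medians of 1284 bases and 0.386. Their scores therefore matched those of the single-replicate members while their widths were smaller. All 93 members of 10 kb or wider were held by both lists, as were 170 of the 174 members from 5 to 10 kb.

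The shift came between 2 and 5 kb. From 3 to 5 kb both lists held 72.6% of 197 members, from 2 to 3 kb 42.7% of 192, and from 1301 bases to 2 kb 7.09% of 282. Below that width lie 213 members (18.5%) that are narrower than the narrowest cluster of either replicate list, which measured 1301 bases anywhere in the genome. Of these 213, 207 were held by neither list and 0 by both. Whether the authors' lists had a limit on width is not stated. Among the 938 members of at least 1301 bases, 54.2% were held by both lists and 21.1% by neither.

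**Figure D1:**
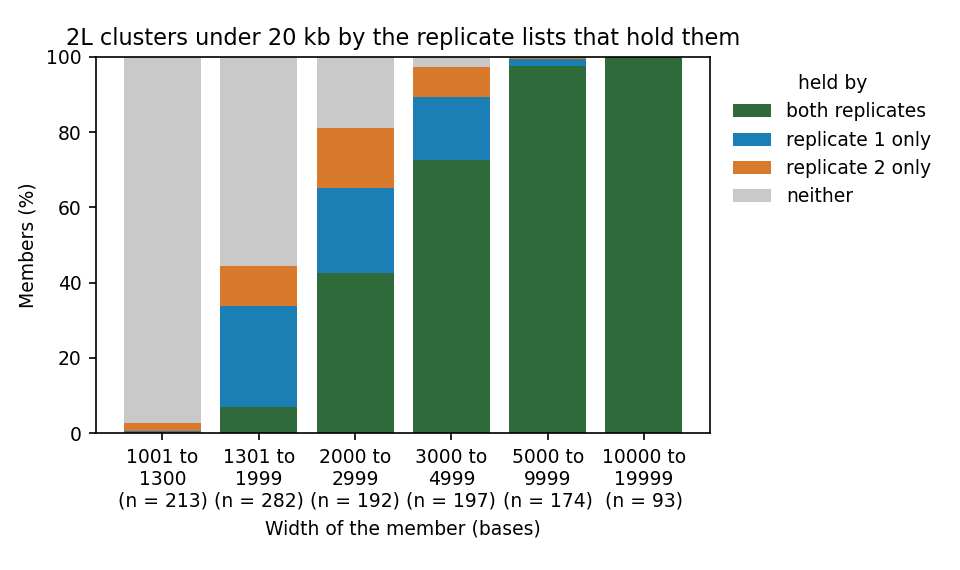
Members on 2L by width class (x axis, bases, with the number of members) and the percent of each class (y axis) held by both replicate lists, by 1 of them or by neither, counted by at least 1 shared base. The share held by both goes from 0 of 213 in the narrowest class to all 93 in the widest.

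Scores ordered the members in a similar way. Ranked by score and divided at the quartiles, both lists held 21 of the 288 lowest members (scores of 0.117 to 0.373, 7.29%) and 279 of the 288 highest (0.526 to 1.54, 96.9%). Between the quartiles the share was 14.9% up to the median score and 57.5% above it. Width goes with score, since the median width was 1671 bases in the lowest of these classes and 6985.5 in the highest, and the parts of the 2 measures were not separated.

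The members with the highest scores were wide for members, at 6.06 to 16.7 kb, and had closely similar extents in the 3 lists. The top member, 2L:9205369-9219034 (13.7 kb), scored 1.54, and its single partner scored 1.52 in replicate 1 and 1.58 in replicate 2. The next, 2L:1663164-1679895 (16.7 kb, score 1.52), had partners at 1.62 and 1.45. The third, 2L:1685483-1695012 (9.53 kb, score 1.41), follows it after a gap of 5587 bases with no cluster between them, and its partners scored 1.53 and 1.36. Near 19 Mb lie 2L:19135224-19148374 (13.2 kb, score 1.40, partners at 1.48 and 1.34) and 2L:19356501-19362561 (6.06 kb, score 1.38, partners at 1.37 and 1.43). Each replicate list covered at least 92.5% of the bases of each of these 5 members with 1 cluster.

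The widest members held by both were also filled by the replicate clusters, though not always in 1 piece. The widest, 2L:9496060-9515698 (19.6 kb, score 1.13), was covered to 99.5% by 1 cluster of replicate 1 and to 98.3% by 1 cluster of replicate 2. 2L:2159275-2178380 (19.1 kb, score 1.09) was likewise covered to 98.6% and 98.8% by single clusters. In contrast, 2L:4359852-4379162 (19.3 kb, score 0.712) met 4 clusters of replicate 1 and 2 of replicate 2. Also, 2L:1024170-1043204 (19 kb, score 0.742) met 2 clusters in each list, and 2L:16467063-16485867 (18.8 kb, score 0.971) met 2 in replicate 1 and 1 in replicate 2. The pair in 1 piece in both lists carried the highest scores of these 5 wide members.

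At the other end, the 5 widest members held by neither list measured 3.07 to 3.85 kb and scored 0.319 to 0.361, all below the median score of the members. They lie at 2L:6210766-6214613, 2L:3788406-3791729, 2L:17534554-17537835, 2L:4823058-4826321 and 2L:7163563-7166630. The third of these opens a run of 5 members, 2L:17534554-17556340, in which 1 member was held by both lists and 3 by neither.

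A small set went against the order by score. Of the 288 members above the upper quartile of scores, 8 were held by neither list, and 7 of the 8 were narrower than 1301 bases. This set was singled out after its values were seen. The extreme was 2L:4668015-4669144, which measured 1130 bases and scored 1.34, at the 99.3rd percentile of member scores. It was followed by 2L:18051792-18052803, with 1012 bases and a score of 1.12. Of the other 6, which scored 0.53 to 0.713, 2L:15654421-15655692 (score 0.53) lies close to 2L:15657544-15658717 (score 0.713). Further along, past other members, lies 2L:15690992-15692168 (score 0.634). The replicate lists hold nothing at these places, so no replicate value can be set beside these scores.

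Members with 1 partner in each replicate list were mostly wider than both partners, and the combined list joined some replicate clusters. Over all clusters taken by the rule, the median width was smaller in the combined list, at 2313 bases against 2492 in replicate 1 and 2516 in replicate 2. For 349 members, exactly 1 cluster in each replicate list met the member and no other combined cluster. The median width of these was 4047 bases in the combined list, 2906 in replicate 1 and 2805 in replicate 2, and 331 of the 349 were wider in the combined list than in both replicates. The replicates placed the edges of these clusters close to each other, with a median distance of 211 bases between starts and 197 bases between ends. Starts lay within 500 bases of each other in 73.9% of the 349, and ends in 73.9%. For 343 of them the replicate clusters shared at least a base. Their scores in the replicates went together (Pearson r 0.927, Spearman rho 0.822), as a description over clusters that were selected for being in both lists.

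Further members gathered several replicate clusters: 112 members met 2 or more clusters of replicate 1 and 118 met 2 or more of replicate 2, with at most 4 and 5. Seen from the replicate lists, neighbouring clusters within 1 kb of each other formed 197 pairs in replicate 1, of which 135 (68.5%) lie in a single combined cluster. In replicate 2, 161 of 204 such pairs (78.9%) do. Of the 508 members held by both lists, 501 contain bases that lie in both lists, and in the other 7 the replicates marked different parts of the member. Over all member bases, 51.6% lie in both lists and 24.1% in neither, and the list of replicate 1 covers 66.0% and that of replicate 2 61.4%. No member met a replicate cluster of 20 kb or wider. Of the narrow replicate clusters, 80 of 872 in replicate 1 and 100 of 851 in replicate 2 met a combined cluster of 20 kb or wider.

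Spacing between members ranged from a few bases to more than 200 kb. For the 1101 pairs of members that follow each other with no wider cluster between them, the median gap was 2520 bases, with quartiles at 794 and 10639 bases. The replicate lists were sparser, with median gaps of 3272 bases and 3538 bases (mean 3405 ± 188.1, SD, n = 2). Gaps of at most 1 kb made up 327 (29.7%) of the member gaps, 23.6% in replicate 1 and 25% in replicate 2. Short gaps were frequent and took up little of the arm, while 284 gaps of at least 10 kb summed to 10.5 Mb and 65 gaps of at least 50 kb to 5.70 Mb.

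**Figure D2:**
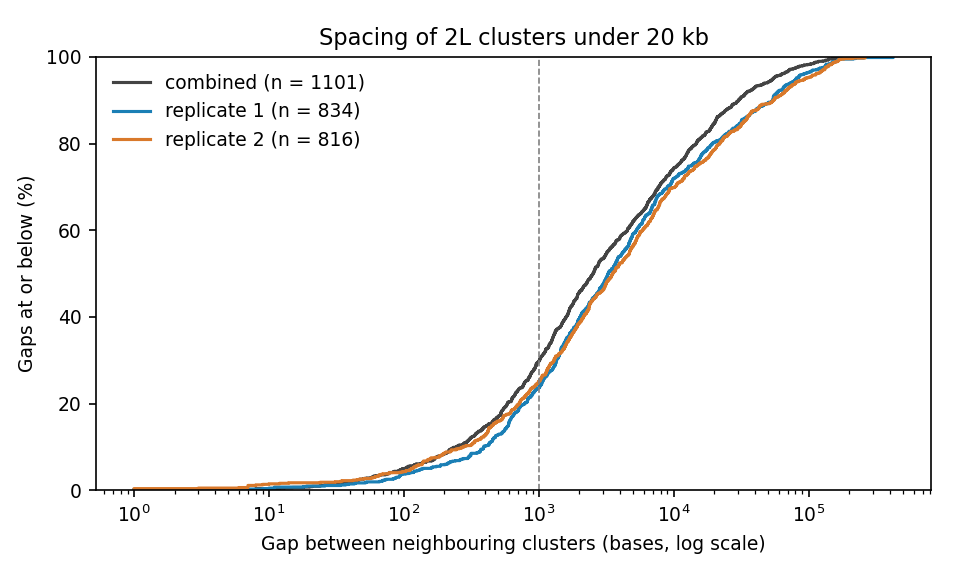
Cumulative percent (y axis) of gaps between neighbouring clusters under 20 kb on 2L, in bases on a log scale (x axis, a gap of 0 drawn at 1), for the combined list and each replicate list. The dashed line marks 1 kb, and 29.7% of the combined gaps, 23.6% of those of replicate 1 and 25% of those of replicate 2 lie at or below it.

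The 5 longest gaps between members were empty, or all but empty, in the replicate lists too. The longest, 2L:5494139-5725070, spanned 230.9 kb and met 0 clusters in either replicate list. It was followed by 2L:14705590-14925507 (219.9 kb), 2L:7249315-7415548 (166.2 kb), 2L:15761343-15916436 (155.1 kb) and 2L:16019193-16169564 (150.4 kb). Only the third of these met a replicate cluster, which reached over its edge in replicate 2 and covered 0.0108% of it. Among the narrow replicate clusters, 1 of 872 in replicate 1 and 0 of 851 in replicate 2 met no combined cluster. Gaps chosen for having no combined cluster were therefore nearly bound to be empty in the replicate lists.

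Close neighbours formed runs. A run is a chain of at least 3 members with each gap at most 1 kb, ended by any wider cluster. There were 79 runs with 281 members (24.4%), against 22.6% of all combined clusters under 20 kb in the genome. A further 250 members stood in 125 pairs and 620 (53.9%) stood alone. In the lists of the replicates 16.4% and 18% of the clusters stood in runs (17.2% ± 1.12, SD, n = 2). Most runs were short, with 57 of 3 members, 12 of 4, 5 of 5, 2 of 6, 1 of 7 and 2 of 9. They spanned 4.77 to 58.3 kb with a median of 14.5 kb, and members filled a median of 93.3% of the bases of a run. All runs together took up 6.76% of the first 20 Mb.

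The longest run, 2L:11820599-11878882, held 9 members over 58.3 kb with gaps of 78 to 997 bases. Both lists held 8 of its members, and it met 12 clusters in replicate 1 and 13 in replicate 2, which covered 61.6% and 55.8% of it. The other run of 9, 2L:14250881-14287956, was shorter, at 37.1 kb, with 5 of its 9 members in both lists and 3 in neither. The replicates covered 40.7% and 50.3% of this run. Scores in the first run ranged from 0.267 to 0.691 and in the second from 0.381 to 0.505, so neither contained one of the top-scoring members.

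The run of 7, 2L:3406616-3439458 (32.8 kb), opened with its widest member of 15914 bases and was covered to 70.0% and 59.0% by the replicates, with 3 members held by both. The 2 runs of 6 lie at 2L:2312272-2341617 (29.3 kb, 2 members held by both) and 2L:19190420-19233996 (43.6 kb, 3 held by both). The latter included a member of 17920 bases and the highest score of these 5 runs, 1.07, and was covered to 62.4% and 64.2%. In each of these 5 runs the widest member was over 10 kb wide and held by both lists, as were all 93 members of that width. This is therefore no trait of the runs. Of the 37 members of the 5 runs, 9 were held by neither.

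**Figure D3:**
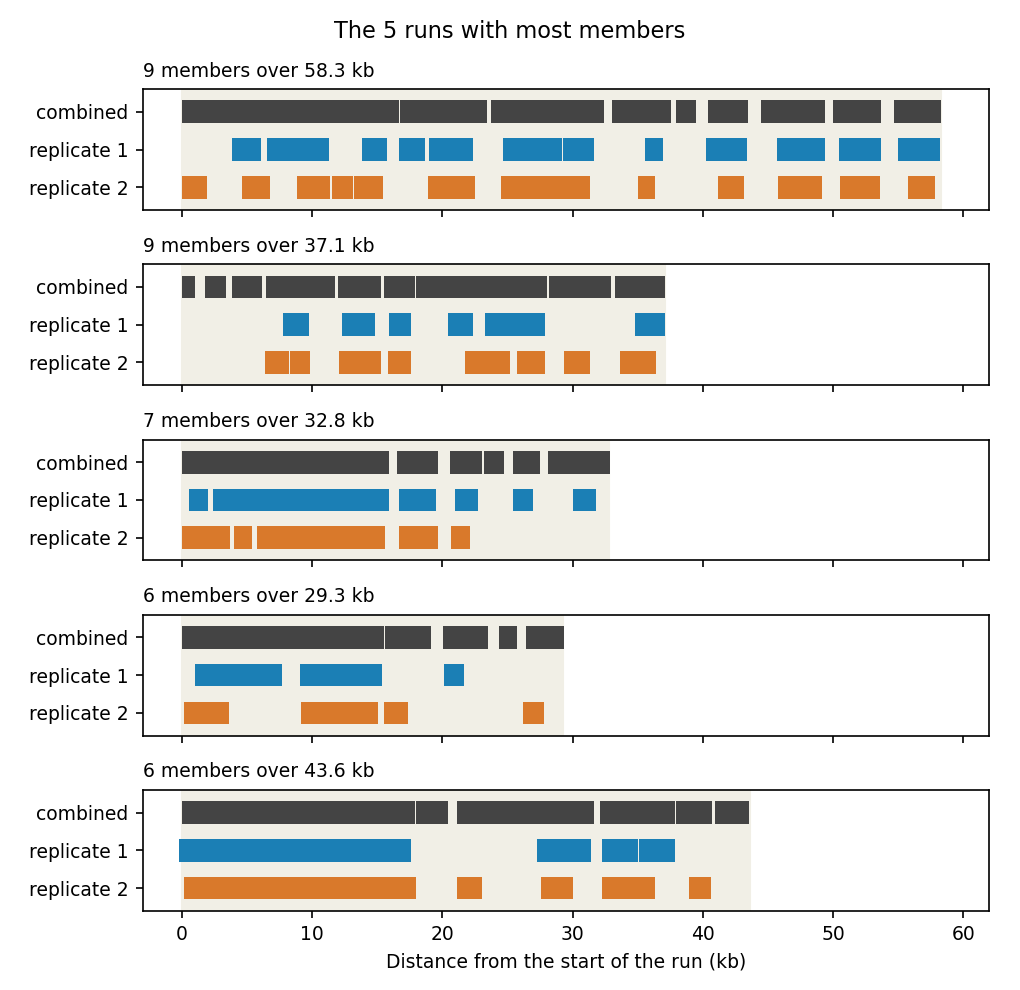
Clusters of the combined list and of each replicate list over the 5 runs with most members, by distance from the start of the run in kb (x axis), with the run shaded. Blocks are drawn to scale, gaps of under about 100 bases are too narrow to see, and the replicate lists cover 40.7% to 70.0% of each run.

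Members in runs and pairs were wider than lone members, and both lists held a larger share of them. In runs the median width was 2925 bases and 50.9% were held by both, in pairs 2983 bases and 52.0%, and among lone members 1955 bases and 37.9%. Within a width class the difference was not in 1 direction. From 2 to 3 kb, both lists held 35 of 97 members in runs or pairs (36.1%) and 47 of 95 lone members (49.5%). From 3 to 5 kb they held 77 of 104 (74.0%) and 66 of 93 (71.0%). No run was without bases in the replicate lists: all 79 met at least 1 replicate cluster, 69 contained a member held by both, and 8 consisted of such members alone. A run has at least 3 members, each of which could meet a replicate cluster, so these counts depend on run length. No expected counts were computed. Of the 327 gaps of at most 1 kb between members, a cluster of replicate 1 bridged 6 and a cluster of replicate 2 bridged 4. Combined clusters were mostly wider than their replicate partners and some members had none, so few bridges were possible and nothing is read from this count.

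Some members lay beside the wider clusters. Within 1 kb of a combined cluster of 20 kb or wider there were 35 members (3.04%), and within 10 kb there were 109 (9.47%). The median distance to such a cluster was 114394 bases. For comparison, 0.611% of the bases outside wider clusters lie within 1 kb of one and 5.57% within 10 kb. Both shares of members are above these, though a member was measured from its nearer edge and so reaches further than a single base.

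At a scale of 100 kb, members were spread unevenly over the arm. The first 20 Mb was divided into 200 windows, and each member was counted in the window of its start. The covered percent of a window counts all cluster bases in it, also those of clusters that start outside it. The windows held 5.75 members on average (SD 3.91 over windows), with a median of 5 and a range from 0 to 18. There were 37 windows with 10 or more members, which contained 446 members (38.7%), and 15 windows with none. The 20 fullest of the 200 windows contained 23.4% of the members, against 27.6% and 26.4% in the replicate lists. Most of the 20 fullest windows of the combined list were not among the 20 fullest of the replicate lists. With ties taken by position, 7 were among those of replicate 1 and 6 among those of replicate 2. Over all 200 windows, cluster numbers in the 2 replicate lists went together (Pearson r 0.887, Spearman rho 0.884, as a description). In the replicate lists 25 and 21 windows were empty (23.0 ± 2.83, SD, n = 2), and the fullest window held 17 clusters in each.

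**Figure D4:**
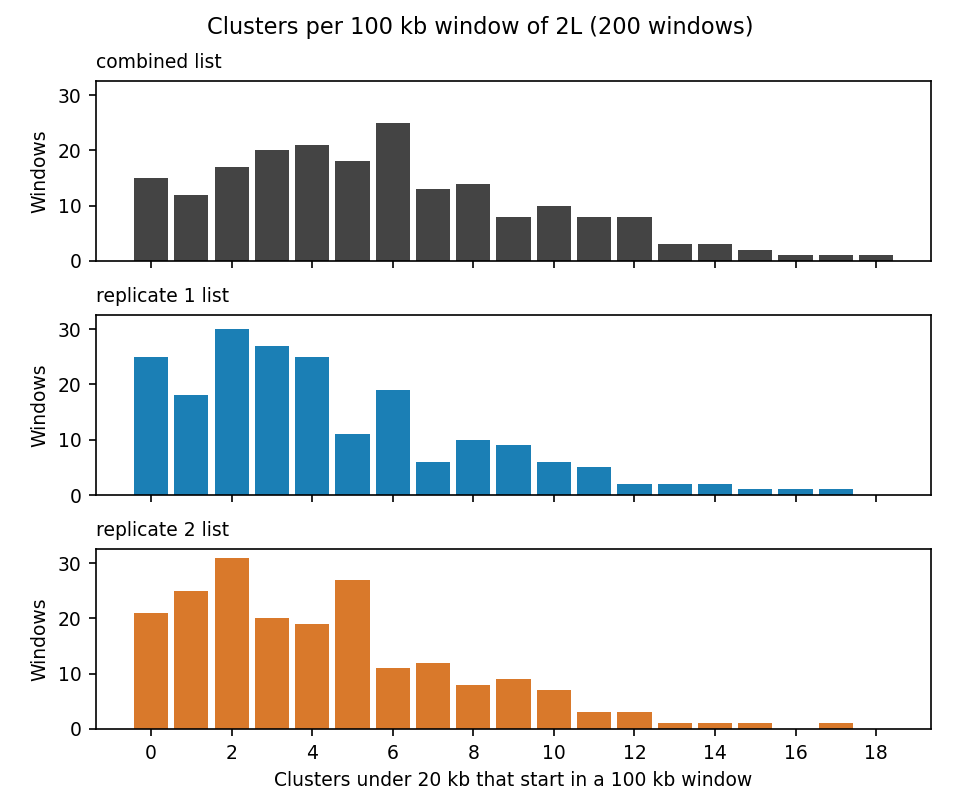
Number of 100 kb windows on 2L (y axis) by the number of clusters under 20 kb that start in them (x axis), for the combined list and each replicate list over the same 200 windows. The combined list reaches 18 clusters with 15 empty windows, and the replicate lists reach 17 with 25 and 21 empty windows.

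The fullest window, 19.2 to 19.3 Mb, held 18 members, of which both lists held 4 and neither held 9. Member bases covered 54.3% of it, including part of a member of 17920 bases that starts in the window before. The next, 16.5 to 16.6 Mb, held 17 members (10 in both lists) and 65.3% was covered. The window from 11.8 to 11.9 Mb, the place of the longest run, held 16 members, 11 of them in both lists, and was covered to 69.3%. These 3 windows contained no base of a wider cluster.

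The window from 2.5 to 2.6 Mb differed from the others. It held 15 members, with medians of 1665 bases and a score of 0.391, and only 24.6% of it was covered. Both lists held 1 of them, 1 list held 7 and neither held 7, and the replicates covered 7.99% and 4.95% of the window. A window with many members can thus hold little that passed in both lists. Outside the 10 fullest, 2L:5800001-5900000 was alike, with 12 members, of which both lists held 2 and neither held 10, and 21.3% covered.

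Further windows among the 10 fullest were 18.8 to 18.9 Mb with 15 members, 3.6 to 3.7, 17.5 to 17.6 and 19.6 to 19.7 Mb with 14 each, and 6.2 to 6.3 and 14.1 to 14.2 Mb with 13 each. The window from 17.5 to 17.6 Mb was the most covered of all by members, at 72.5%, with 50.1% in replicate 1 and 38.4% in replicate 2. Of these 10 windows 3 lie between 18 and 20 Mb. Of the 10 segments of 2 Mb, the last was the fullest, with 87.5 members per Mb and 33.3% covered. There 9 of the 20 windows held 10 or more members. The emptiest segment was 12 to 14 Mb, with 40.0 per Mb and 18% covered. The share of members held by both lists was 41.1% from 18 to 20 Mb and 47.5% from 12 to 14 Mb. Over the 10 segments it tended to be lower in denser ones (Spearman rho -0.673, as a description). It was highest from 8 to 10 Mb (54.3%) and lowest from 2 to 4 Mb (35.8%). The segment from 0 to 2 Mb went against this tendency, with 65.5 members per Mb and 50.4% held by both.

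Sparse windows were of more than 1 kind. Of the 27 windows with at most 1 member, 18 contained no base of a wider cluster, 6 were covered to at least 50% by wider clusters and 3 were covered in part. The 27 windows formed 23 stretches, of which 4 were 2 windows long. At 5.5 to 5.7 Mb there was no cluster of any width in the combined list and none of under 20 kb in either replicate. At 14.4 to 14.6 Mb there was 1 member, but wider clusters covered 93.2%. The other 2 were mixed, 13 to 13.2 Mb with 2 members and 59.1% in wider clusters and 13.6 to 13.8 Mb with 1 member and 17.3%. The fifth stretch by the rule of position among single windows, 1.3 to 1.4 Mb, held 1 member of 2051 bases, found in replicate 2 alone, and no wider cluster. Of the 15 windows with no member start, 11 had no base in any combined cluster.

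Windows rich in members contained fewer bases of wider clusters. In the 37 windows with 10 or more members, wider clusters covered 3.77% and 29 windows had none, and in the 49 windows with 1 to 3 members they covered 16.4%. Over the 200 windows the Spearman rho between the number of members and the covered percent of wider clusters was -0.181. A base in a wider cluster cannot be in a member, so part of this is fixed by the rule. The share of members held by both lists was 49.1% in windows with 1 to 3 members, 45.7% with 4 to 6, 44.4% with 7 to 9 and 41.7% with 10 or more, while the share held by neither lay between 33.0% and 36.4% with no such order.

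The percent of a window covered was similar in the replicates for most windows. Over the 200 windows, coverage by clusters under 20 kb correlated between replicates (Pearson r 0.902, Spearman rho 0.898), and the median absolute difference was 2.08 percentage points. The windows are neighbouring stretches of 1 arm and the values are given as a description. In the 134 windows with no wider combined cluster, r was 0.961 and the largest difference 12.1 points. In the 66 windows with one, r was 0.821 and the largest difference 29.9 points, at 8.8 to 8.9 Mb. There replicate 1 had no narrow cluster and replicate 2 had 3, and with clusters of all widths the window was covered to 86.6% and 85.3%. In this window the replicates thus differed in how far clusters were divided at the limit of 20 kb, while their total coverage was close.

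**Figure D5:**
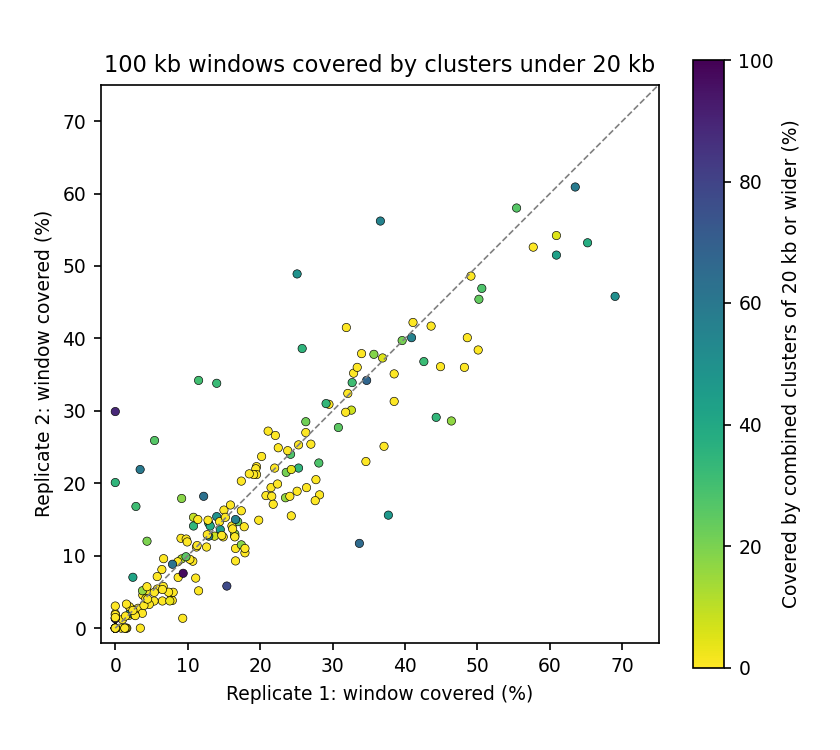
Percent of each of 200 windows of 100 kb on 2L covered by clusters under 20 kb in replicate 1 (x axis) and replicate 2 (y axis), shaded by the percent covered by combined clusters of 20 kb or wider, with the dashed line at equal coverage. Windows without wider clusters lie within 12.1 percentage points of the line, and the farthest window, with 0% and 29.9%, is one with wider clusters.

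Set beside the other large arms by width alone, with no limit on the start, 2L lay close to the autosomal arms. It had the lowest density, with 56.1 clusters under 20 kb per Mb, against 60.1 on 2R, 59.6 on 3L, 57.2 on 3R and 67.2 on X. Both replicate lists held 43.2% of these clusters on 2L (Wilson 95% interval 40.5 to 45.9), 42.5% on 2R, 42.9% on 3L, 40.4% on 3R and 37.2% on X (interval 34.8 to 39.7). The intervals of 2L and X do not overlap, but they cover counting error only, and no test between arms was made. The median gap was 2598 bases on 2L and ranged from 2416 to 2950 on the other arms, and the share in runs was 24.1% on 2L and 17.7% to 25.5% on the others.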

How the data were processed

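Per the submitters' processing notes, alignment used Bowtie 0.12.7. Positions refer to FlyBase release 5, per the file headers. The authors deposited an enriched-cluster list for each ChIP replicate and one for the replicate set, with a score per cluster. The reference of the score, the caller with its threshold and filters, and the way of combining replicates are not stated here. Scores were compared only within a list, or as correlations and side by side between lists. Each input was the control of the ChIP replicate of its number, per the labels.

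From the lists, overlaps, gaps, runs and windows were computed with Python 3.11.15, numpy 2.4.6 and scipy 1.17.1, and figures with matplotlib 3.10.9. The code was tested on simulated lists. Intervals are Wilson 95%. A cluster was named by coordinates if it was among the 5 top-scoring or 5 widest members held by both lists, the 5 widest held by neither, or the 3 on each side of each limit. The 5 longest gaps, 5 runs with most members, 10 fullest windows and 5 longest sparse stretches were named too, ties by position. Members and measures were chosen with earlier results of these data known. Clusters were not assigned to genes and no sequence is printed, since the gene table is of release 6 and coordinates were not converted. Alternatives were other overlap rules, score, width and start limits, window frames, run definitions and single replicate lists.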

Additional observations from a re-analysis of the deposited data

How the results depend on the processing

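The share of members held by both lists (44.1%) was 34.9% when each list had to cover at least 50% of the member, 28.2% with reciprocal 50% overlap with a single cluster and 16.2% with the replicate lists cut to their part above the median score. It was 90% for members above the median score of the whole combined list (450 members), 74.4% for members of at least 2 kb and 39.2% for those under 10 kb. With replicate 1 left out, the list of replicate 2 held 51.3% of the members, and with replicate 2 left out, that of replicate 1 held 57.6%. By construction neither can be below the share in both. The median gap (2520 bases) was 7099 bases for members above the median score, 4169 for members of at least 2 kb and 2777 with wider clusters ignored, and 3272 to 3538 in the single replicate lists. Fewer clusters give longer gaps by construction. The share in runs (24.4%) was 9.47% with gaps of at most 500 bases, 43.0% with 2000 and 63.1% with 5000, and 46.1% and 5.39% with at least 2 and at least 5 members. It was 8.00% for members above the median score, 16% for members of at least 2 kb, 20.5% under 10 kb and 16.4% to 18% in single replicate lists. The 15 windows without a member became 43 for members above the median score and 24 for members of at least 2 kb. There were 10 with windows moved by 50 kb, and 21 to 25 in single replicate lists. Out of totals other than 200 windows, there were 24 on the whole arm, 80 of 50 kb and 0 of 200 kb. The 20 fullest windows held 29.8% of members above the median score and 27.9% of those of at least 2 kb. On the whole arm, which has more windows, they held 21.7%. The share was 24.4% with windows moved by 50 kb and 26.4% to 27.6% in single replicate lists. The median width of members held by both (5197 bases) was 5312.5 with 50% covered and 4402 with reciprocal overlap, both tried after the data were seen. The correlation of window coverage (0.902) was 0.985 with clusters of every width, 0.882 for windows of 50 kb and 0.917 for 200 kb. Of the 50 alternatives, 10 kept their result within the spread between replicates, its interval or, for counts of windows, a factor of at most 1.5. The 10 empty windows after the move by 50 kb and the 21 without replicate 1 are among these. For the median width of members held by both and for the correlation of window coverage, no such limit was set. Their alternatives are among the 50 and could not count as kept. Where no construction is named, the cause was not tested. No paired analysis was possible because only the ChIP samples have cluster lists and they belong to 1 group. Depth is unknown and limits what narrow members can show.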
